A study of Arabidopsis thaliana with 16 samples.

Results

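Of the 22746 probe sets on the Arabidopsis thaliana ATH1 array that are not controls, 40 gave more signal in shoots at 16 °C than at 22 °C in both genotypes, by a fixed size, and did not change strongly between the sampling times. They were chosen by measured values. The mean log2(intensity + 16) had to be at least 0.7 higher at 16 °C in Ler and also in phyB-1, over 4 arrays at each temperature. The change between 4 h and 10 h had to stay under 1.5 log2 units in Ler at each temperature and in phyB-1 at 22 °C. In all, 47 probe sets passed. Of these, 7 were removed by name because they belong to cold-induced, anthocyanin and lipid transfer genes (COR15A, COR47, LTI30, DFR, UF3GT, AT5G01870 and AT5G59330). The temperature differences below therefore describe how the members were picked, and none of them was tested. Another 47 probe sets passed both temperature limits but changed more between the times, and they are not among the members.

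The arrays hold RNA from all parts of the plant except the roots. Plants were the Landsberg erecta wild type, Ler, and phyB-1, a mutant that lacks working phytochrome B, the photoreceptor for red and far-red light. Each genotype was labelled 16 or 22 °C and 4 or 10 h, which gives 8 groups of 2 arrays. All of them grew on soil, and the growth text, the same for every sample, gives 11 days at 16 °C and then 21 days at 22 °C. What the plants labelled 16 °C experienced is thus not clear from it, nor is the event from which the hours count. The labels do not say that paired arrays came from separate plants, so p-values measure only the spread between these arrays, which may be technical. In whole shoots, more cells of a type and more RNA per cell cannot be told apart.

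Arabidopsis acclimates to cool conditions by raising the transcripts of cold-regulated genes, many of them under the CBF transcription factors. Their products include late embryogenesis abundant proteins, which protect membranes and other proteins, as well as secreted and cell wall proteins and enzymes of specialised metabolism. Phytochrome B senses temperature as well as light, because its active form reverts to the inactive one faster in the warm.

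Of the 40 members, 15 probe sets had 1 gene in the array annotation, and they stand for 14 genes, since AT1G31690 has a pair of them. Another 2 are shared by several genes and 23 are not listed, so these 25 are given by probe set ID. The 14 genes do not lie side by side: at least 293 protein-coding genes separate any neighbouring 2 of them in the RefSeq annotation of assembly TAIR10.1. None of the 14 is in the 13 pathway lists or the 5 marker lists used here.

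Median intensity was 30.7 to 41.0 over the 16 arrays. Replicate arrays correlated at 0.963 to 0.978 in 6 groups, but at 0.918 and 0.920 in phyB-1 at 16 °C at 4 h and 10 h. There, the arrays labelled replicate 2 appear to go against their time labels. Among the 18 members that changed with time by at least 0.5 log2 units on average in the other groups, these 2 arrays differed in the opposite direction in 16. The replicate 1 arrays differed in the same direction in 14. Means over both times, on which the members and the genotype differences rest, do not change if the times of 2 arrays are exchanged. The spread within these groups would change, and with it the SE and p-values of the genotype test. The 3' control probe set of GAPDH exceeded the 5' one, as a log2 ratio that grows where RNA is broken, by 0.53 to 0.73 in Ler at 16 °C and 0.32 to 0.75 at 22 °C. In phyB-1 it was 0.51 to 1.63 and 0.60 to 0.81, and its part in the results was not tested. The shoot genes RCA, PSBY and LHCB4.1 averaged 4639 to 8308 in every genotype and temperature. The other named gene of that list, LHCB4.3, was dimmer and less even, at 204 and 118 in Ler and 102 and 77.9 in phyB-1 at 16 and 22 °C. PYK10, the 1 of 8 root markers with a named probe set, ranged from 92.2 to 374, and its mean was lower at 16 °C in each genotype. No flower, seed or senescence marker had a named probe set.

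Differences between the temperatures were mostly modest. The median over the 40 members was 0.96 log2 units in Ler, with a range of 0.70 to 2.31, and 0.93 in phyB-1, with a range of 0.70 to 3.02. The median over all 22746 probe sets was -0.01 in Ler and 0.01 in phyB-1. In both genotypes 9 members reached 1 log2 unit. Ler had the larger difference in 22 members and phyB-1 in 18. Just inside the threshold lay AT1G23410, AT3G56880 and 258167_at, whose smaller difference was 0.714, 0.705 and 0.701. Just outside lay an unlisted probe set, AT2G28790 and AT2G21130, at 0.698, 0.697 and 0.695, so the edge of the group is not a gap in the data.

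**Figure D1:**
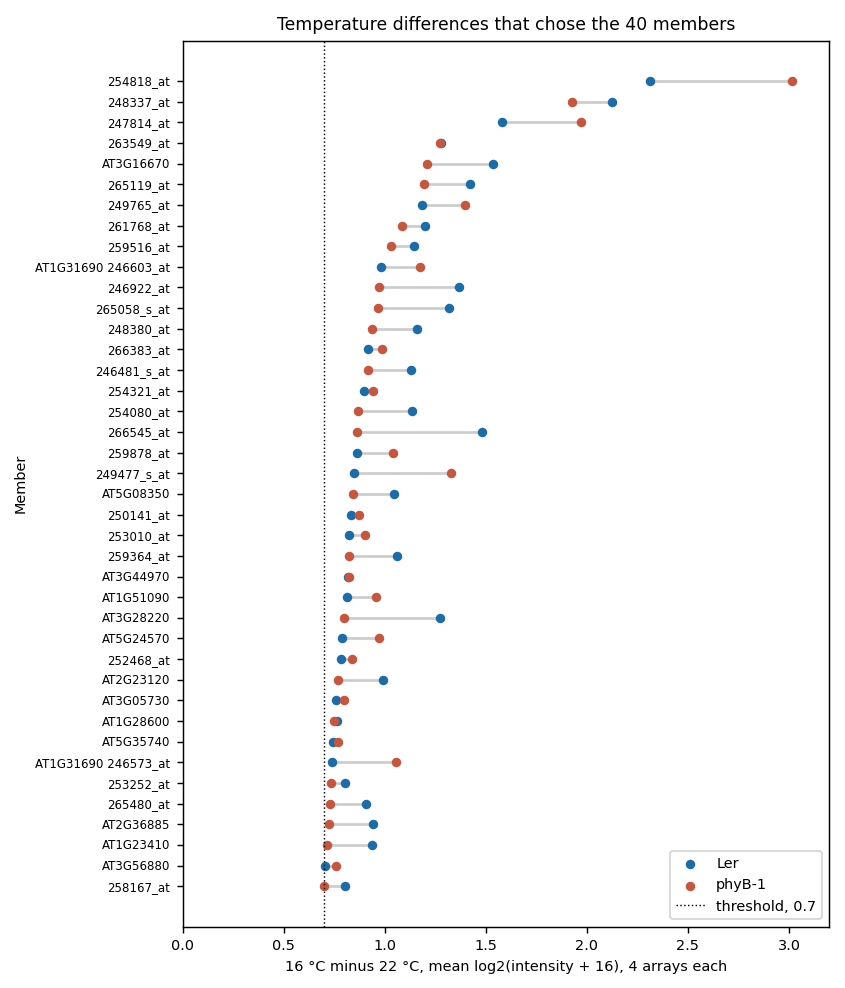
Difference between 16 and 22 °C of each of the 40 members in Ler (blue) and phyB-1 (red), as mean log2(intensity + 16) over 4 arrays each, ordered by the smaller of the 2 values. The values run from the threshold of 0.7 (dotted line) to 3.02, and the first 3 members stand above the others.

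Largest on this scale in both genotypes was 254818_at, an unlisted probe set. In Ler its intensities were 171 and 159.8 at 4 h and 381 and 239 at 10 h at 16 °C, against 29.3 and 27.1 at 4 h and 44.2 and 30.7 at 10 h at 22 °C. In phyB-1 they were 241 and 341 at 4 h and 541 and 316 at 10 h at 16 °C, against 41.1 and 17.4 at 4 h and 27.2 and 32.0 at 10 h at 22 °C. Every 16 °C array thus lay far above every 22 °C array, by 7.24-fold in Ler and 12.2-fold in phyB-1 on the means. By the smaller of the 2 differences the next was 248337_at, which was bright, at 836 to 1482 in Ler and 1254 to 2304 in phyB-1 at 16 °C. At 22 °C it was at 134 to 423 and 256 to 685, with no overlap between temperatures. After it by that measure came 247814_at, with less signal, at 133 ± 71.7 and 32.1 ± 17.7 in Ler and 128 ± 52.2 and 21.4 ± 16.1 in phyB-1 at 16 and 22 °C (SD, n = 4). Here and below such SDs cover the 4 h and 10 h arrays together, so they include the change with time. The brightest member was 246481_s_at, shared by several genes. It gave 7673 ± 1233 at 16 °C and 3749 ± 1652 at 22 °C in Ler, and 8726 ± 2704 and 4723 ± 1712 in phyB-1.

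Among members that encode secreted or wall proteins, AT3G16670 had the largest difference of the named genes. Its product is a small protein of the Ole e 1 allergen and extensin family. Ler gave 807 and 709 at 4 h and 701 and 674 at 10 h at 16 °C, and 282 and 229.7 at 4 h and 235 and 212 at 10 h at 22 °C. In phyB-1 it was at 663 and 565 at 4 h and 551 and 717 at 10 h, and at 308 and 241 at 4 h and 307 and 196 at 10 h. In Ler values changed little between the times, and in neither genotype did the 2 temperatures overlap (3.01-fold in Ler and 2.37-fold in phyB-1). AT3G05730 encodes a defensin-like peptide, one of a large family of small cysteine-rich secreted proteins. Its mean over all arrays was the second highest of the members. Arrays gave 1814 and 1933 at 4 h and 1872 and 1682 at 10 h in Ler at 16 °C. At 22 °C the Ler arrays gave 994 and 1219 at 4 h and 954 and 1131 at 10 h. In phyB-1 the same gene was at 1952 ± 97.7 and 1115 ± 32.5 (SD, n = 4). The log2 differences of 0.76 and 0.80 are near the threshold, yet the temperatures did not overlap in either genotype. AT5G35740, whose product carries a carbohydrate-binding X8 domain, was likewise separated, at 125 ± 16.0 against 69.0 ± 19.4 in Ler and 109 ± 35.1 against 55.4 ± 5.44 in phyB-1. AT1G28600 encodes a GDSL-type lipase. Its arrays overlapped between temperatures, at 202 to 569 against 90.6 to 358 in Ler, and its 10 h values were lower than those at 4 h at each temperature.

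Enzymes of small molecule metabolism were represented by 2 genes. AT1G31690 encodes a copper amine oxidase, an enzyme class that oxidises polyamines and releases hydrogen peroxide. Its brighter probe set gave 263 and 235 at 4 h and 518 and 446 at 10 h in Ler at 16 °C, and 123 and 108 at 4 h and 287 and 205 at 10 h at 22 °C. In phyB-1 the values were 179 and 271 at 4 h and 337 and 117 at 10 h at 16 °C, and 59.7 and 76.1 at 4 h and 119.7 and 91.7 at 10 h at 22 °C. Within each time the Ler temperatures were apart, but 1 of the 10 h arrays at 22 °C lay above both 4 h arrays at 16 °C. The dimmer probe set of the same gene differed by 0.74 in Ler and 1.05 in phyB-1, where the brighter one differed by 0.98 and 1.17. The pair measure 1 gene and are not separate evidence. AT3G44970, a cytochrome P450 gene, was dim. It gave 34.6 and 23.8 at 4 h and 22.9 and 16.6 at 10 h in Ler at 16 °C, and 1.67 and 17.1 at 4 h and 3.31 and 7.39 at 10 h at 22 °C, where most values lie under the highest lower quartile of any array (11.4). In phyB-1 it was at 29.5 ± 9.45 and 9.31 ± 0.902. Its mean was too low for the test across probe sets, as for 2 more members, and 5 members in all had a 22 °C mean below that quartile in at least 1 genotype. The offset of 16 sets the size of their log2 differences.

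The next members are grouped only for description, and most are known here by a domain or family alone. AT2G23120 encodes a late embryogenesis abundant protein. In Ler it was at 988 and 1143 at 4 h and 823 and 909.5 at 10 h at 16 °C, and 826 and 710.3 at 4 h and 342 and 248 at 10 h at 22 °C. In phyB-1 the values were 1227 and 1029.6 at 4 h and 1002 and 1433 at 10 h, and 1042 and 905 at 4 h and 562 and 388 at 10 h. In Ler the temperatures lay farther apart at 10 h than at 4 h. AT1G51090 encodes a protein with a heavy metal-associated domain, and stood at 93.3 ± 61.6 and 43.3 ± 24.6 in Ler and at 133 ± 38.9 and 65.6 ± 37.1 in phyB-1. Its Ler arrays at 16 °C gave 106 and 175 at 4 h and 42.1 and 49.6 at 10 h. AT3G28220, of the TRAF-like family, was at 562 to 951 against 116 to 443 in Ler without overlap. In phyB-1 it overlapped, at 523 to 1582 against 277 to 579, and 1 array, 16 °C 4 h replicate 1, stood at more than any other. AT5G08350, a GRAM domain gene, was at 56.1 and 82.3 at 4 h and 171 and 231 at 10 h in Ler at 16 °C, and 32.9 and 52.2 at 4 h and 52.6 and 62.9 at 10 h at 22 °C. The difference lay mainly at 10 h.

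AT3G56880 encodes a protein with a VQ motif, a family that binds WRKY transcription factors. Ler gave 189 and 258 at 4 h and 314 and 914 at 10 h at 16 °C, and 206 and 249.8 at 4 h and 177 and 199 at 10 h at 22 °C. At 4 h the temperatures lay close together, and 1 array at 10 h, replicate 2, carried much of the mean. AT1G23410, a gene for ubiquitin fused to a ribosomal protein, was dim at 50.4 ± 7.75 against 20.9 ± 14.7 in Ler and 45.6 ± 7.02 against 23.0 ± 13.1 in phyB-1. The last 2 named members, AT5G24570 and AT2G36885, are given without a role. AT5G24570 was at 277 ± 48.6 and 157 ± 51.7 in Ler, and AT2G36885 at 259.9 ± 57.5 and 126 ± 19.9. In phyB-1 they stood at 281 ± 74.4 and 132 ± 13.3, and at 187 ± 62.1 and 103 ± 4.73.

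**Figure D2:**
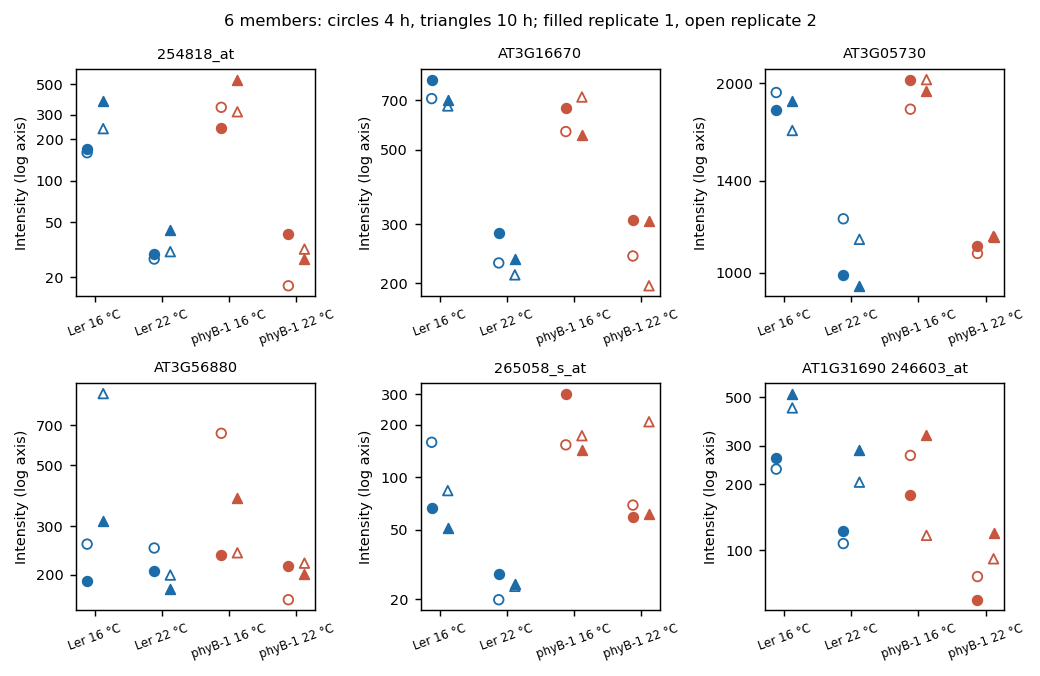
Intensity (log axis) of 6 members in each array, by genotype (blue Ler, red phyB-1) and temperature, with circles for 4 h, triangles for 10 h, filled symbols for replicate 1 and open ones for replicate 2. AT3G05730 lies between 1682 and 2026 at 16 °C, above all of its 22 °C arrays, while the 10 h arrays carry the Ler difference of AT3G56880.

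Not every member was separated between the temperatures in every array. All 4 arrays at 16 °C exceeded all 4 at 22 °C in 21 of 40 members in Ler, where 1.53% of all probe sets did so. The count was 20 in phyB-1, against 1.78%, and 13 in both genotypes, against 0.255%. These shares use the contrast that chose the members, so nothing is read from them. In 12 members the arrays overlapped in both genotypes. Taken by replicate number, all 40 members were higher at 16 °C on the replicate 1 arrays and on the replicate 2 arrays, in each genotype. On replicate 1 alone 37 members reached 0.7 in Ler and 33 in phyB-1, and on replicate 2 alone 29 and 28 did. The same arrays chose the members, so these counts are not a replication.

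**Figure D3:**
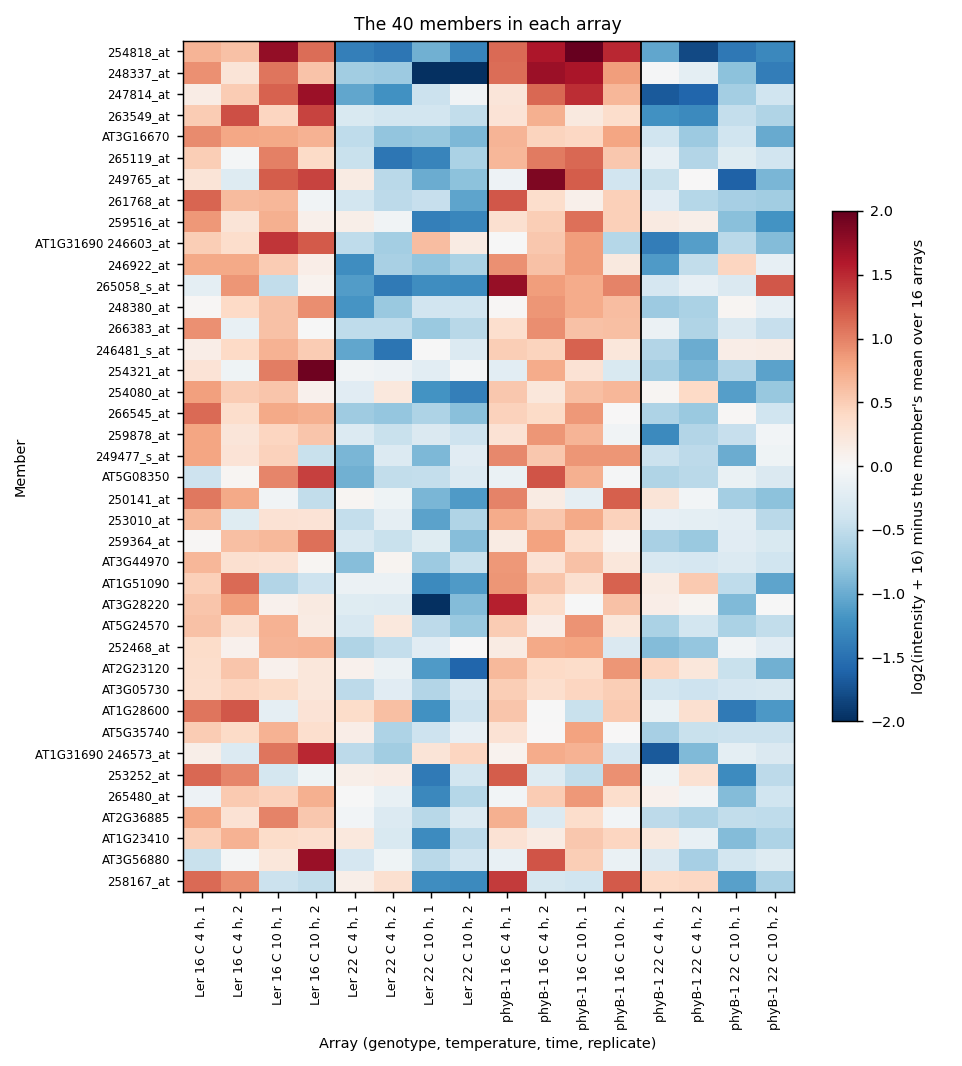
Level of each member (rows) in each array (columns), as log2(intensity + 16) minus the member's mean over the 16 arrays, with the colour scale ending at 2 on either side and lines between genotype and temperature blocks. The 16 °C blocks are mostly red and the 22 °C blocks mostly blue, and several members at 16 °C differ between the 4 and 10 h arrays.

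The selection allowed moderate changes with time, and the members differed widely in them. Over Ler at both temperatures and phyB-1 at 22 °C, 15 members were lower at 10 h in all 3 groups, 8 were higher in all 3, and 17 were mixed. Strongest toward 4 h was 258167_at, whose change from 4 to 10 h was -1.48 and -1.48 in Ler at 16 and 22 °C and -1.27 in phyB-1 at 22 °C. AT1G28600 and AT1G51090 behaved alike, with mean changes of -1.26 and -1.17. At the other end were AT1G31690, with 0.81 and 1.12 on its probe sets, and 247814_at with 1.02. Nothing is read from the labelled times of phyB-1 at 16 °C, because of the 2 arrays named above.

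In Ler the temperature difference was often larger at 10 h. At 10 h it was above that at 4 h in 26 members and below it in 14, and it was larger by at least 1 log2 unit in 8 members and smaller by that much in none. The median difference was 0.89 at 4 h and 1.13 at 10 h. At 4 h 24 members reached 0.7, and at 10 h 37 did. The probe set 249765_at gave 54.9 and 33.7 at 16 °C and 50.7 and 24.8 at 22 °C at 4 h, but 121 and 136 against 13.9 and 17.9 at 10 h. Its temperature difference was 0.18 and 2.18 at these times, as its 10 h values were above the 4 h values in the cool and below them in the warm. The differences were for 254321_at 0.18 and 1.61, for AT3G56880 -0.03 and 1.44, and for AT2G23120 0.46 and 1.52. No test was made, since the limits on time changes and temperature differences shaped these values. The shares over all probe sets were not worked out, so the counts are not read as particular to the members.

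**Figure D4:**
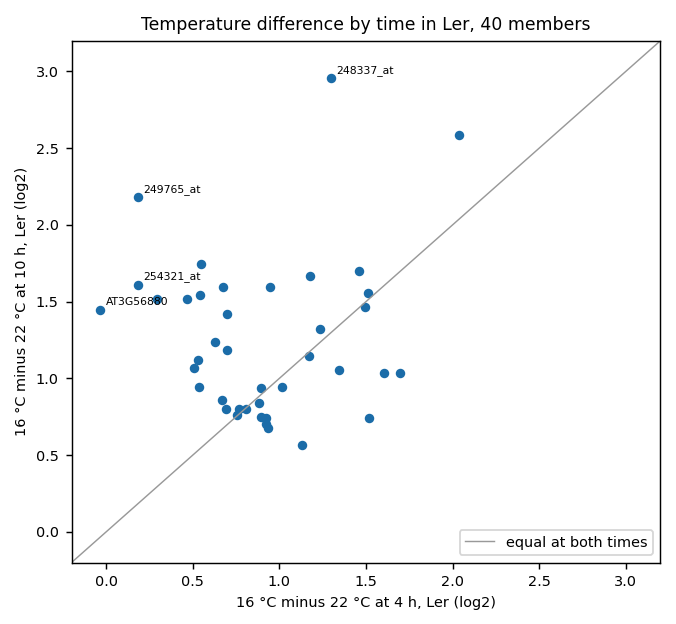
Temperature difference of each member in Ler at 4 h (x axis) and 10 h (y axis), in log2(intensity + 16), each from 2 arrays per temperature, with the line of equal values and names for the 4 members farthest above it. More points lie above the line (26) than below it (14), and AT3G56880 is at -0.03 at 4 h and 1.44 at 10 h.

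Whether the members also differed between phyB-1 and Ler was not part of their choice. The genotype difference averaged over both temperatures and times was therefore tested, 8 arrays against 8, with limma over 13648 probe sets, of which 37 were members. No member passed at an adjusted p under 0.05, higher or lower, where 0.0953% of all tested probe sets were higher in phyB-1 and 0.022% lower. That holds only after the removal by name. Of the 7 probe sets so removed, LTI30 (0.80 ± 0.13 log2 units) and AT5G01870 (0.94 ± 0.16) were called higher in phyB-1 (SE, limma adjusted p = 0.049 for each). DFR was on the lower side, at -0.87 ± 0.16 (limma adjusted p = 0.068). At an unadjusted p under 0.05 there were 12 members, 6 higher and 6 lower, which is 32.4% of the 37, where 7.04% of all tested probe sets were. Both probe sets of AT1G31690 are among the 12, so they are not 12 separate genes. Deviations that arrays share can also move many probe sets at once, and the share itself was not tested. The median difference was 0.06 over the tested members and 0.02 over all.

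The smallest p belonged to 265058_s_at, an unlisted probe set. In Ler it ran from 19.9 through a median of 39.5 to 159, and in phyB-1 from 59.2 through 148 to 302. The difference was 1.19 ± 0.23 log2 units (SE, limma adjusted p = 0.075). It was 1.02 at 16 °C and 1.37 at 22 °C. For 248337_at phyB-1 was on the higher side at each temperature, with a difference of 0.72 ± 0.16 (limma adjusted p = 0.15). AT1G31690, the amine oxidase gene, was at a median of 118 in phyB-1 and 249 in Ler on its brighter probe set. That difference was -0.78 ± 0.18 (limma adjusted p = 0.19), and on the dimmer probe set it was -0.47 ± 0.18 (limma adjusted p = 0.56). The means were lower in phyB-1 at both temperatures on both probe sets. For 254321_at it was -0.68 ± 0.18 and for 263549_at -0.51 ± 0.15 (limma adjusted p = 0.29 and 0.41). AT1G51090 (0.51 ± 0.15) and the late embryogenesis abundant gene AT2G23120 (0.38 ± 0.12) were on the higher side, at limma adjusted p = 0.42 and 0.45. AT3G16670 and AT3G05730, whose temperatures did not overlap in either genotype, differed by -0.05 ± 0.12 and 0.08 ± 0.09.

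Without the 2 arrays of doubtful time, and with the replicate number as a block, 3 of 37 members were called higher in phyB-1, where 0.953% of all tested probe sets were, and 2 lower, where 0.982% were. The higher ones were 265058_s_at (1.40 ± 0.19, limma adjusted p = 0.0006), 248337_at (0.67 ± 0.11, limma adjusted p = 0.0042) and AT3G28220 (0.62 ± 0.14, limma adjusted p = 0.031). AT1G31690 on its brighter probe set (-0.71 ± 0.11, limma adjusted p = 0.0015) and 254321_at (-0.73 ± 0.15, limma adjusted p = 0.019) were called lower. In this fit only the replicate 1 arrays stand for phyB-1 in the cool, and they are assumed to vary like the other groups. For AT3G28220 they include the 16 °C 4 h array that stood above all others. With all 16 arrays AT3G28220 differed by 0.44 ± 0.21 (SE, limma adjusted p = 0.71), with 0.21 at 16 °C and 0.68 at 22 °C. Leaving out that array alone gave 0.29. With single arrays left out, 1 or 2 members were called in 3 of 16 fits, namely without phyB-1 16 °C 4 h replicate 2 (2 members), 16 °C 10 h replicate 1 (1) and 22 °C 10 h replicate 1 (1). Those fits called 62, 34 and 6 probe sets in all, where the fit to all arrays called 16.

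**Figure D5:**
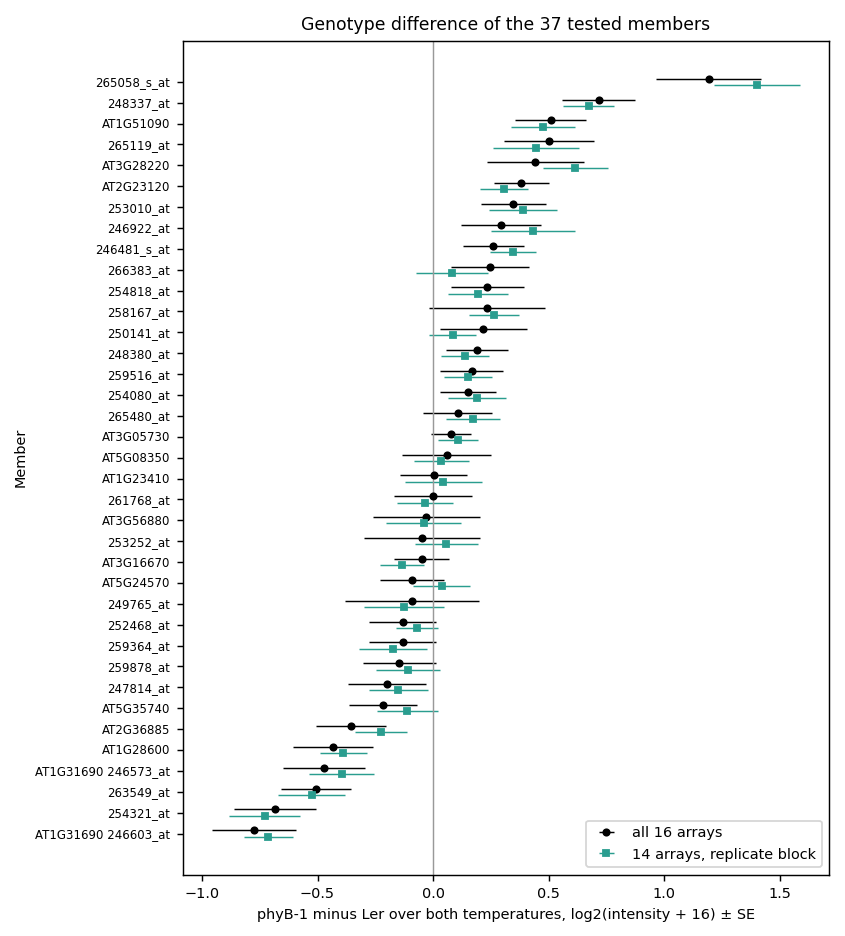
Difference phyB-1 minus Ler over both temperatures and times for the 37 tested members, in log2(intensity + 16) with SE bars, from all 16 arrays (black circles) and from 14 arrays with the replicate block (green squares). With all 16 arrays the values run from -0.78 for AT1G31690 to 1.19 for 265058_s_at, which is at 1.40 with 14.

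Genes of the pathway lists outside the members, on cold response and on other themes, were compared for context, with limma over the same probe sets. Of 30 genes in the 13 pathway lists with a named probe set, 29 were tested. In Ler 6 were called higher at 16 °C, where 0.227% of all tested probe sets were, and 1 lower, where 0.169% were. In phyB-1 7 were called higher, against 0.256%, and 2 lower, against 0.381%. All genes called higher are among the 11 that were left out of the members by name. LTI30, DFR, AT5G01870 and AT5G59330 had passed the same rule as the members, so nothing is read from the shares. The lists had been drawn up with earlier results of these arrays known, so these counts are not independent evidence. They cover 2 of 7 cold response genes in each genotype, COR15B and the dehydrin gene LTI30, and 1 of 3 flavonoid genes, DFR. Here 7 and 3 are the genes with a named probe set, out of 23 and 15 listed. The lists on abscisic acid, membrane lipid desaturation and ribosome biogenesis had no gene with a named probe set. LTI30 at 1.93 and 2.74 log2 units in Ler and phyB-1 and COR15B at 1.69 and 1.79 exceeded all named members, and of all members 254818_at alone exceeded LTI30 in both genotypes. The lipid transfer list gave AT5G01870 and AT5G59330 as higher in both genotypes, and the chaperone list HSC70-3 (AT3G09440) as higher and ROF2 as lower in both. In phyB-1 alone SPCH, a regulator of the stomatal lineage, was called higher and the lipid transfer gene AT5G05960 lower. Whether the temperature difference itself differs between the genotypes was not tested for them. Averaged over both temperatures, AT5G05960 was higher in phyB-1 by 1.03 (limma adjusted p = 0.005), and SPCH differed by -0.24 (limma adjusted p = 0.72). The green shoot markers were not called in either genotype (0 of 4), nor was PYK10.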

How the data were processed

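The 16 ATH1 arrays were grouped by the genotype, temperature and time in their titles. Each deposited file gives an intensity for every probe set on a linear scale. The submitters' processing notes name MAS5 and GCOS, with versions not given in the sources used here. Their 2% trimmed means were 100.01 on every array, so the authors' scaling was kept. The number of arrays, 2 per group, limits the precision. Values were used as log2(intensity + 16), a scale that understates changes of dim probe sets. The 64 control probe sets were left out. Temperature and time differences were means over the arrays of a group. The test covered the 60% of probe sets with the highest means (13648) and used R 4.3.3 and limma 3.58.1 (8 group means, eBayes with an intensity trend, Benjamini-Hochberg adjustment). Those at an adjusted p under 0.05 are called. The procedure was run on artificial data of known differences, with independent noise on each array and changes only in brighter probe sets. That run does not cover dim members or deviations that arrays share.

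The members, the 18 gene lists (208 genes) and the tests were chosen with earlier results of these arrays known. Named genes are every member with 1 gene, and of the unnamed probe sets the largest temperature and time differences, the smallest p-values of the genotype test and those at the threshold, at most 10. Names came from the platform annotation and the RefSeq table of assembly TAIR10.1. The replicate number was a block only in alternatives. Alternatives were other offsets, filters, scalings and variance models, the replicate block, 14 arrays, and leaving out single arrays. No promoter or protein sequences were used here.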

Additional observations from a re-analysis of the deposited data

How the results depend on the processing

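The number of members depends on the offset, which sets how far dim probe sets can differ. The same rule found 220 members with an offset of 1, of which 28 were among the 40, and 20 with an offset of 64, of which 16 were. On the replicate 1 arrays alone it found 100 (26 shared) and on replicate 2 alone 38 (18 shared). Quantile normalization gave 43, median centring 39 and the 14 arrays 46, each with 37 shared. Leaving out single arrays gave 36 to 48 members with 31 to 38 shared, and 12 members were found in all 16 of these runs.

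For the genotype difference, 16 probe sets were called with all arrays. The count was 4 with offset 1, 6 without a filter, 7 with quantile normalization, 6 with median centring and 264 in the 14-array fit with replicate block, and 4 to 62 with single arrays left out, a change of over 1.5 times for each of the 16 arrays. It was 62 without phyB-1 16 °C 4 h replicate 2, and 27 and 34 without the phyB-1 16 °C replicate 1 arrays of 4 h and 10 h. The other 13 gave 4 to 10. The replicate block alone, with pairing by number, gave 23. Arrays that share a replicate number deviated together, with a correlation over 0.1 in 27 of 28 pairs of groups (-0.25 to 0.39). The main fit had no block for the replicate number, so its spread includes these shared deviations. Members called were 5 in the 14-array fit, 0 to 2 with single arrays left out and 0 in the 8 other alternatives. The genotype differences of the 13 members with an unadjusted p under 0.05 or a call in the 14-array fit kept their direction in every alternative that tested them. The alternatives reuse the arrays by which these 13 were picked, so a kept direction is not a replication. For 265058_s_at the adjusted p ranged from 0.0006 to 0.25 over its 25 alternatives. List genes called between temperatures in Ler numbered 7 with all arrays, 13 in the 14-array fit and 2 to 9 with single arrays left out, where each Ler array brought it to 2 to 4. In phyB-1 they numbered 9, and 5 to 10 with single arrays left out, the lowest without phyB-1 22 °C 4 h replicate 1.

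Signal near background limits the size of differences, not only their error, for the 5 members with the dimmest 22 °C means. The 2 arrays per group allow no test for a deviating array within a group.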
